A study of Homo sapiens with 6 samples.

Results

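The genes described here are 9 tumour suppressors and chromatin regulators that are recurrently mutated in bladder cancer, namely RB1, CDKN2A, ARID1A, KMT2D, KMT2C, KDM6A, STAG2, EP300 and CREBBP. They were taken by symbol from the deposited count table and all 9 were found among its 56303 genes. RNA-seq had been carried out on cells labelled T24, an established human bladder cancer line, to ask how gene expression changes when the F-box gene FBXL6 is targeted. The control group, siNC, was labelled WT and received a negative-control siRNA. The other group, siFBXL6, was labelled FBXL6 knockdown and received siRNA against FBXL6. Each group had 3 libraries, prepared from 2 µg of total RNA, and the study's methods give 48 h of transfection. All 6 libraries carried the same batch label. The totals were 58646515, 60967902 and 56814946 counts in siNC 1 to 3, and 60968158, 60898556 and 60754015 counts in siFBXL6 1 to 3. A single cell line was used, and the labels state neither which siRNA sequence each library received nor whether the replicates were separate cultures. The labels of both groups end in 1 to 3 while the study's methods name 2 siRNAs against FBXL6, so the digits were read as replicates. Whether siFBXL6 1 and 2 received different siRNAs is not given. The p-values therefore measure the spread between these samples, which may be technical.

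These genes act at a few control points of the nucleus. RB1 encodes the retinoblastoma protein, which holds E2F transcription factors in check until cyclin-dependent kinases phosphorylate it, and CDKN2A encodes both p16, an inhibitor of CDK4 and CDK6, and ARF, which binds and restrains the ubiquitin ligase MDM2. ARID1A is a subunit of SWI/SNF remodelers, KMT2D, KMT2C and KDM6A write or clear histone methylation at enhancers, EP300 and CREBBP acetylate histones there, and STAG2 is a subunit of the cohesin ring; loss-of-function mutations of chromatin regulators are a known feature of urothelial carcinoma.

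FBXL6, the targeted gene (chromosome 8, 144355431 to 144359376, minus strand, GRCh38), was measured first because it checks the labels. Its counts were 362, 414 and 398 in siNC 1 to 3 and 398, 344 and 350 in the libraries labelled siFBXL6. The ranges of the groups overlapped. After library normalization, the level was 6.61 ± 0.38 counts per 1000000 (CPM) in siNC and 6.03 ± 0.48 CPM in siFBXL6 (SD, n = 3 each). The log2 fold change was -0.13 (SE 0.088, edgeR adjusted p = 0.247; exact two-sided permutation p = 0.2), so a lower FBXL6 level was not detected. SLC52A2, transcribed from the opposite strand, covers 31.7% of the exon bases of FBXL6, and GS1-393G12.13 covers 5.3%. The library kit was a stranded one. Since the strand setting of the counting is not given in the sources used here, reads of SLC52A2 in the shared part cannot be told apart from those of FBXL6. GS1-393G12.13 lies on the same strand as FBXL6, so no strand setting would separate its reads there. Every direction given here is that of the libraries labelled siFBXL6.

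The cell type label was compared with marker genes. Urothelial and epithelial markers summed to 4152, 4018 and 4132 CPM in siNC 1 to 3 and to 3701, 3688 and 3705 CPM in siFBXL6 1 to 3, so every siFBXL6 library lay below every siNC library. Keratin 7 (KRT7) was the most abundant of these 16 genes, with 1053, 1014 and 1048 CPM in siNC 1 to 3. Of the uroplakins, which mark the surface cells of the urothelium, UPK1A had no count in any library. Of the 12 epithelial markers tested, 2 were higher and 6 were lower in siFBXL6 at an adjusted p under 0.05, so 66.7% were called. By that rule 40.2% of all genes tested were called, 20.5% higher and 19.8% lower. The 6 mesenchymal markers summed to 2682, 2599 and 2538 CPM in siNC 1 to 3 and to 2292, 2332 and 2343 CPM in siFBXL6 1 to 3, nearly all of it from fibronectin (FN1). The sum does not stand for each of them, since 2 of the 6 were higher and 2 were lower. Vimentin (VIM) rose from 15.6 ± 0.51 to 25.4 ± 0.53 CPM (log2 fold change 0.70, SE 0.051, edgeR adjusted p = 2.57e-13) and TWIST1 by 0.49 on the log2 scale, while FN1 fell by 0.16 and N-cadherin (CDH2) by 0.59. In siNC the low vimentin level stood beside 118 CPM of E-cadherin (CDH1) and 437 CPM of keratin 5 (KRT5). T24 is generally described as rich in vimentin with little E-cadherin. The levels of these genes go against that description, while the mesenchymal markers CDH2, at 138 CPM, and FN1, at 2429 CPM in siNC, were abundant. E2F3 was also abundant, at 69.3 CPM per kilobase of exon in siNC, percentile 96.9 of all genes tested. The study's methods report short tandem repeat profiling to authenticate its cell lines. The identity of the line in these libraries was not tested here, so the levels of RB1 and CDKN2A hold for the libraries as labelled. The 11 leukocyte, endothelial and fibroblast markers summed to 47.5, 48.9 and 47.4 CPM in siNC 1 to 3 and to 58.5, 55.9 and 56.9 CPM in siFBXL6 1 to 3, with COL1A1 the most abundant. Of the 9 tested, 2 were higher and 1 was lower, so 33.3% were called beside 40.2% over all genes tested. CD68 rose from 6.70 ± 0.14 to 18.8 ± 0.94 CPM (log2 fold change 1.49, SE 0.066, edgeR adjusted p = 4.65e-19) and PECAM1 from 0.573 to 1.39 CPM, while COL1A1 fell by 0.15 on the log2 scale. Vimentin, TWIST1, CDH2, E-cadherin, CD68, PECAM1 and the level of E2F3 were chosen after their values were seen. The defining leukocyte marker PTPRC lay at or below 0.696 CPM in every library. The part of these shifts in the results below was not tested.

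In siFBXL6, 7 of the 9 genes were lower, 1 was higher (STAG2) and 1 was not called (KMT2D), at an adjusted p under 0.05. All 9 had passed the filter on low counts. Over the 21298 genes tested, 40.2% were called by the same rule, 20.5% higher and 19.8% lower. For 8 of the 9 genes the libraries of both groups were fully separated, as they were for 48.2% of all genes tested. The median log2 fold change of the 9 genes was -0.195, while over all genes tested it was -0.01 and its median size was 0.182. The changes were thus of ordinary size for these libraries. The largest were those of RB1 at -0.38 and EP300 at -0.36, and that of STAG2 was 0.08. For the 8 genes without overlap, exact two-sided permutation of the libraries gave p = 0.1, the smallest value that 3 against 3 allows. Bulk RNA does not separate fewer cells that express a gene from less RNA per cell, and protein was not measured. The count of 8 called genes fell to 5 without siNC 2 and likewise without siFBXL6 1.

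**Figure D1:**
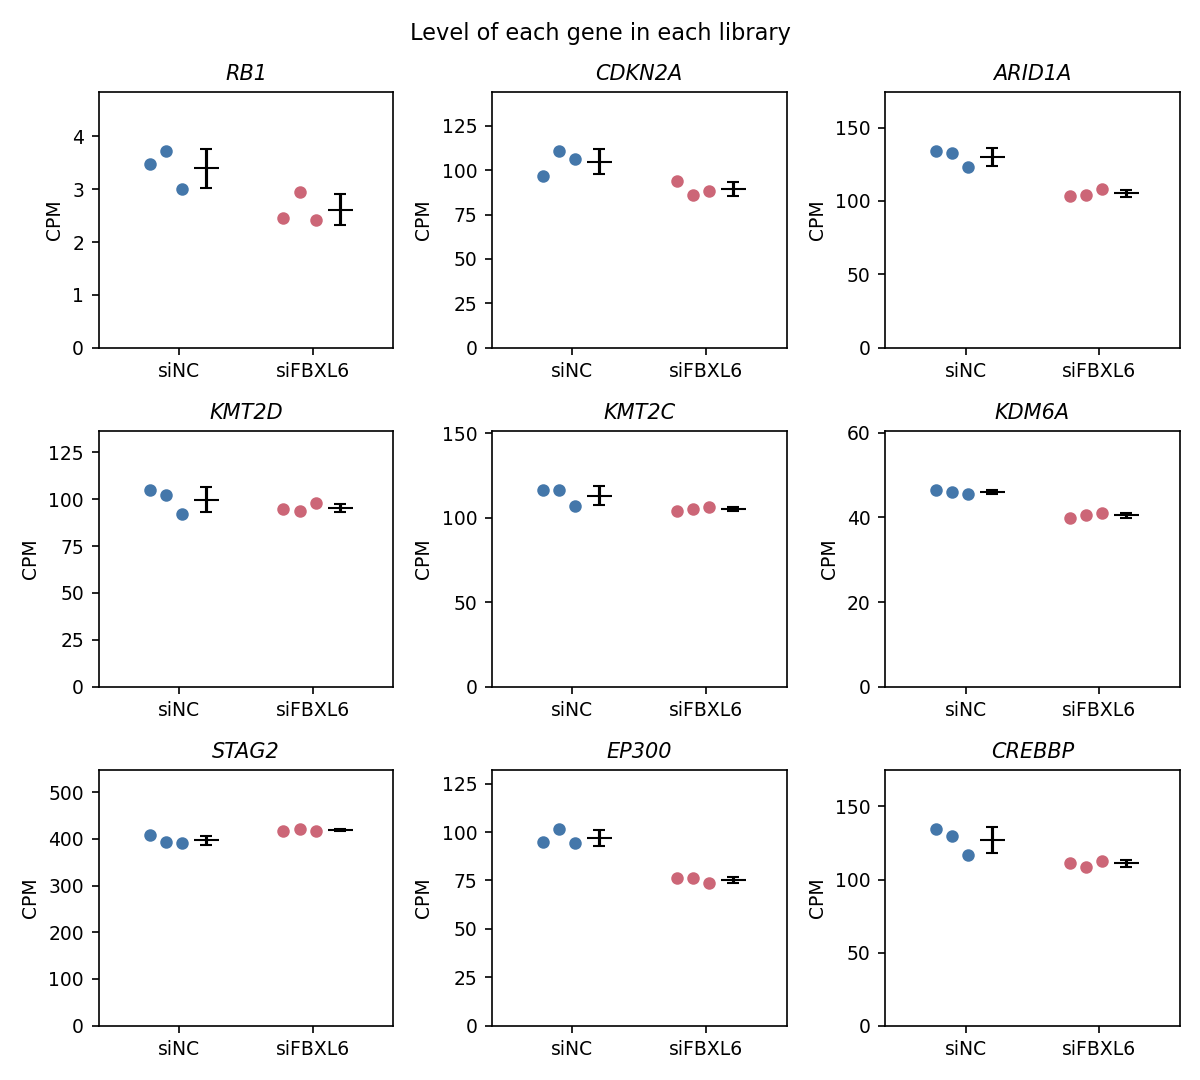
Each panel shows 1 gene, with its CPM in each of the 3 siNC (blue) and 3 siFBXL6 (red) libraries from 0 on the vertical axis, and the mean with SD beside the points. KMT2D is the only gene whose groups overlap, and STAG2 is the only one with its siFBXL6 libraries on top.

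RB1 (chromosome 13, 48303751 to 48481986, plus strand) was scarce. Its counts were 203, 230 and 172 in siNC 1 to 3 and 149, 178 and 146 in siFBXL6 1 to 3, which is 3.47, 3.72 and 2.99 CPM against 2.46, 2.95 and 2.42 CPM. The lowest siNC library, siNC 3, stood just above the highest siFBXL6 library, siFBXL6 2. The mean was 3.40 ± 0.37 CPM in siNC and 2.61 ± 0.29 CPM in siFBXL6, which corresponds to a log2 fold change of -0.38 (SE 0.127, 95% interval -0.64 to -0.12, edgeR adjusted p = 0.0155). The call was not firm. DESeq2 gave an adjusted p of 0.067, and edgeR gave 0.0938 without siNC 2, 0.0637 without siFBXL6 1 and 0.074 without siFBXL6 3.

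The other pocket proteins, which share the E2F-binding domain of RB1, were more abundant. Per kilobase of exon, RB1 had 0.551 ± 0.060 CPM in siNC, RBL1 (p107) had 9.98 ± 0.24 and RBL2 (p130) had 4.19 ± 0.15. The level per kilobase of RBL1 was 18.1 times that of RB1, and that of RBL2 was 7.6 times. RBL2 rose, from 30.5, 31.8 and 29.6 CPM in siNC 1 to 3 to 38.7, 39.1 and 40.5 CPM in siFBXL6 1 to 3 (log2 fold change 0.36, SE 0.042, edgeR adjusted p = 1.12e-08), with no overlap of the groups. RBL1 had a log2 fold change of 0.00 (SE 0.035, edgeR adjusted p = 0.932). From siNC to siFBXL6, the log2 ratio of RB1 to RBL2 differed by -0.74 and that of RB1 to RBL1 by -0.38, with no overlap in either ratio.

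CDKN2A (chromosome 9, 21967753 to 21995301, minus strand) was by contrast abundant. Its level was 96.9, 110.8 and 106.3 CPM in siNC 1 to 3 and 93.7, 85.9 and 88.3 CPM in siFBXL6 1 to 3. Every siFBXL6 library lay below every siNC library, although siNC 1 and siFBXL6 1 were close. CDKN2A thus had a log2 fold change of -0.23 (SE 0.039, 95% interval -0.31 to -0.15, edgeR adjusted p = 9.17e-06). Of its exon bases, 7.88% are shared with the antisense gene CDKN2B-AS1. CDKN2B, its neighbour and relative, encodes another CDK4 and CDK6 inhibitor, p15. It had 22.3, 23.2 and 24.6 CPM in siNC 1 to 3 and 23.4, 23.96 and 22.3 CPM in siFBXL6 1 to 3, so its groups overlapped (log2 fold change -0.01, edgeR adjusted p = 0.927). Between the groups, the log2 ratio of CDKN2A to CDKN2B differed by -0.22, without overlap. Per kilobase of exon in siNC, CDKN2A stood 4.2 times above CDKN2B.

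One count for CDKN2A sums the transcripts of its separate starts for ARF and p16, which encode unrelated proteins, so the table cannot assign the lower level to either. Both RefSeq promoter windows (GRCh38.p14, 250 bases before to 50 after the start, 5′ to 3′ on the gene's strand) are shown for that reason, with matches to the GC box GGGCGG, bound by SP1, in capitals on either strand.
CDKN2A, ARF start, chr9:21995275-21995574, minus strand: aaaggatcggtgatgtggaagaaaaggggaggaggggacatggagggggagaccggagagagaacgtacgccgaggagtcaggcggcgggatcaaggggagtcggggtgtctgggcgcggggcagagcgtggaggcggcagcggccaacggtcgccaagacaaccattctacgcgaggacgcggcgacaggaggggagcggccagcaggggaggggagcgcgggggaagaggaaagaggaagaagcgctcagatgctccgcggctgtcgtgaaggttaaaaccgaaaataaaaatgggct
CDKN2A, p16 start, chr9:21974808-21975107, minus strand: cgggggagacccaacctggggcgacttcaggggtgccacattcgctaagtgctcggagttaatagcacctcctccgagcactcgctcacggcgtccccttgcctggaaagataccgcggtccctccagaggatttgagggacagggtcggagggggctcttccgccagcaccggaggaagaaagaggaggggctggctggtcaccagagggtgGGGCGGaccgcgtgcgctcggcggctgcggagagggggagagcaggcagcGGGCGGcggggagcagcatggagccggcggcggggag
The ARF window had 28 CpG dinucleotides and no GC box, and the p16 window had 26 CpG and 2 GC boxes, beginning at -37 and 14 from the start. Among the 35116 RefSeq windows of this length, 45% held a GC box, and the median window had 14 CpG.

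Beyond these 2 genes, the RB pathway list held 30 others, of which 9 were higher and 3 were lower in siFBXL6, with a median log2 fold change of 0.01. With RB1 and CDKN2A, 14 of 32 were called, 43.8% beside 40.2% over all genes tested, and the 9 higher and 5 lower became 7 and 7 with library size alone. CDK6, the kinase that p16 inhibits and that phosphorylates the retinoblastoma protein, rose from 62.1 ± 1.26 to 103.5 ± 3.36 CPM (log2 fold change 0.74, SE 0.033, edgeR adjusted p = 5.43e-19). It had the smallest adjusted p and the largest called change of the list. E2F7, a repressor of the E2F family, rose from 48.2 ± 1.38 to 62.2 ± 0.66 CPM (log2 fold change 0.37, SE 0.036). Outside that list, NPM1, which binds ARF in the nucleolus, and MDM2 were higher with log2 fold changes of 0.10 and 0.11 (edgeR adjusted p = 0.00303 and 0.0239). They belong to a list of 7 genes around ARF, with 2 higher and 2 lower. That is 57.1% called, beside 40.2% over all genes tested. Its 2 higher became 1 with DESeq2, upper-quartile factors or library size alone. They also became 1 without siNC 2, siNC 3, siFBXL6 2 or siFBXL6 3, and 4 with the exon length offset or without siNC 1.

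ARID1A (chromosome 1, 26693236 to 26782104, plus strand) encodes the DNA-binding subunit of the BAF form of SWI/SNF. Its level was 134, 132.8 and 123.1 CPM in siNC 1 to 3 and 103.6, 104 and 107.8 CPM in siFBXL6 1 to 3. The groups were well separated, by more than the spread within either. This gave a log2 fold change of -0.31 (SE 0.034, 95% interval -0.37 to -0.24, edgeR adjusted p = 3.24e-09). ARID1B, the alternative subunit, was also lower, with 82.1, 81.1 and 77.2 CPM in siNC 1 to 3 and 76.6, 68.6 and 72.8 CPM in siFBXL6 1 to 3 (log2 fold change -0.14, SE 0.036, edgeR adjusted p = 0.00203). Its lowest siNC library was within 1 CPM of its highest siFBXL6 library. The ratio of ARID1A to ARID1B differed by -0.16 on the log2 scale, without overlap.

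Of 26 other SWI/SNF subunits tested beside ARID1A, 16 were lower and 2 were higher in siFBXL6, with a median log2 fold change of -0.16. With ARID1A, 70.4% were called, beside 40.2% over all genes tested. SMARCA4, an ATPase of these complexes, fell from 503 ± 19.3 to 391 ± 7.61 CPM (log2 fold change -0.36, SE 0.030, edgeR adjusted p = 6.13e-12). The alternative ATPase SMARCA2, named after its values were seen, was not called (log2 fold change -0.01, edgeR adjusted p = 0.789). SMARCD2 fell by 0.33 and SMARCD3 by 0.47 on the log2 scale; both are alternative forms of 1 core subunit. PBRM1, which belongs to the PBAF form, went the other way, from 69.2 ± 1.91 to 86.1 ± 1.27 CPM (log2 fold change 0.31, SE 0.033, edgeR adjusted p = 9.27e-10).

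KMT2D and KMT2C are the large methyltransferases that place H3K4 monomethylation at enhancers, and KDM6A, which removes H3K27 methylation, sits in the same complexes. KMT2D (chromosome 12, 49018975 to 49059774, minus strand) had 104.9, 102.1 and 92.3 CPM in siNC 1 to 3 and 94.8, 93.5 and 97.8 CPM in siFBXL6 1 to 3. All 3 siFBXL6 values fell inside the siNC range. The log2 fold change was -0.07 (SE 0.037, 95% interval -0.14 to 0.01, edgeR adjusted p = 0.164; exact two-sided permutation p = 0.4). This rested on siNC 3, without which it became -0.12 (adjusted p = 0.00558).

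KMT2C (chromosome 7, 152134922 to 152436005, minus strand) had 116.3, 116.2 and 106.7 CPM in siNC 1 to 3 and 103.8, 105.2 and 106.1 CPM in siFBXL6 1 to 3. As for KMT2D, siNC 3 was the lowest control, and here it remained just above siFBXL6 3. KMT2C had a log2 fold change of -0.11 (SE 0.033, 95% interval -0.17 to -0.04, edgeR adjusted p = 0.0105). The adjusted p was 0.0755 without siNC 2 and 0.0584 without siFBXL6 1. Stretches of KMT2C have near-identical copies elsewhere in the genome, so its count is uncertain to the extent that reads were split among them. The log2 ratio of KMT2D to KMT2C differed by 0.04 between the groups, which overlapped (exact two-sided permutation p = 0.2).

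KDM6A (chromosome X, 44873177 to 45112602, plus strand) was the most even of the 9 among replicates of siNC. It had 46.5, 46.0 and 45.6 CPM in siNC 1 to 3 and 39.9, 40.5 and 41.1 CPM in siFBXL6 1 to 3. The gap between the groups was several times their spread. The log2 fold change was -0.18 (SE 0.037, 95% interval -0.26 to -0.11, edgeR adjusted p = 0.000138). Its relative KDM6B, another H3K27 demethylase, had a log2 fold change of 0.03 (SE 0.041, edgeR adjusted p = 0.648). On the same scale the ratio of KDM6A to KDM6B differed by -0.21, without overlap.

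Among the 16 other genes of the COMPASS list, the family of complexes around the KMT2 and SETD1 enzymes, 8 were lower and 1 was higher, with a median log2 fold change of -0.09. With the members, 57.9% of the list was called, beside 40.2% over all genes. Calls were more frequent among genes with more exon bases. Of 2643 tested genes with 6001 to 8000 exon bases, 26% were lower and 25.1% were higher. The higher gene was KMT2A, named after its values were seen, and its call was lost without siNC 3, siFBXL6 2 or siFBXL6 3. PAXIP1, which together with PAGR1 belongs to the KMT2C and KMT2D complexes, fell from 48.4 ± 1.00 to 39.97 ± 1.93 CPM (log2 fold change -0.27, SE 0.040, edgeR adjusted p = 8.18e-07). PAGR1 fell by 0.20 and the shared core subunit ASH2L by 0.23 on the log2 scale. Polycomb repressive complex 2 deposits the H3K27 methylation that KDM6A removes. Of its 13 subunits and cofactors, 8 were lower and 3 were higher, with a median log2 fold change of -0.10, where 19.8% and 20.5% of all genes tested were. The 8 lower became 6 with the exon length offset and 5 with that offset and the replicate block. Its catalytic subunit EZH2 fell from 253 ± 5.90 to 211 ± 3.54 CPM (log2 fold change -0.26, SE 0.030, edgeR adjusted p = 7.52e-09). The cofactors AEBP2 and MTF2 fell by 0.30 and 0.20 on the log2 scale. EPOP, listed in the table under its older symbol C17orf96, rose by 0.32.

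**Figure D2:**
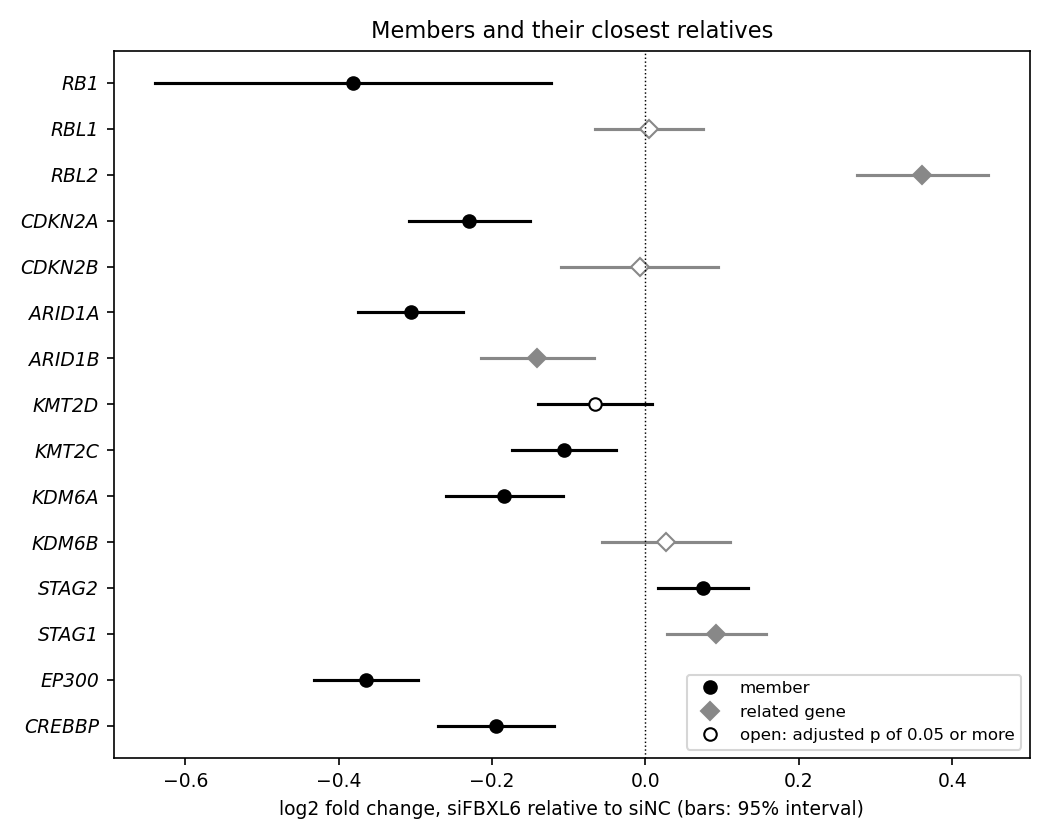
The horizontal axis is the log2 fold change of siFBXL6 relative to siNC, with the 95% interval as a bar, for the 9 genes (black circles) and their relatives (grey diamonds); open symbols have an edgeR adjusted p of 0.05 or more. RB1 and RBL2 lie on opposite sides of 0 at -0.38 and 0.36, while STAG2 and STAG1 lie together at 0.08 and 0.09.

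EP300 and CREBBP encode the closely related acetyltransferases p300 and CBP. EP300 (chromosome 22, 41091786 to 41180079, plus strand) had 94.8, 101.6 and 94.6 CPM in siNC 1 to 3 and 76.4, 76.1 and 73.6 CPM in siFBXL6 1 to 3. Its groups were far apart, with the highest siFBXL6 library well below the lowest siNC library. EP300 had a log2 fold change of -0.36 (SE 0.033, 95% interval -0.43 to -0.30, edgeR adjusted p = 5.65e-11), the smallest adjusted p of the 9 genes. CREBBP (chromosome 16, 3725054 to 3880726, minus strand) had 134.6, 129.6 and 116.9 CPM in siNC 1 to 3 and 111.4, 108.7 and 112.8 CPM in siFBXL6 1 to 3. Again siNC 3 was the control nearest to the siFBXL6 libraries. The log2 fold change was -0.19 (SE 0.037, 95% interval -0.27 to -0.12, edgeR adjusted p = 5.87e-05). Both genes fell, and their log2 ratio, EP300 to CREBBP, differed by -0.17 between the groups without overlap (exact two-sided permutation p = 0.1).

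Promoter windows of this pair, members that fell together, are given for comparison, with GC boxes again in capitals.
EP300, chr22:41092342-41092641, plus strand: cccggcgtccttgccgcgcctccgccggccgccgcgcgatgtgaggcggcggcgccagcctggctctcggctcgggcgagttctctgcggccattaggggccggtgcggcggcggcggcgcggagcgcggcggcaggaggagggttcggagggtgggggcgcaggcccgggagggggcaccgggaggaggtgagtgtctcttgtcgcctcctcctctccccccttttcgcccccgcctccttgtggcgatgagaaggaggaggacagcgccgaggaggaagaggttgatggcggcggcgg
CREBBP, chr16:3880664-3880963, minus strand: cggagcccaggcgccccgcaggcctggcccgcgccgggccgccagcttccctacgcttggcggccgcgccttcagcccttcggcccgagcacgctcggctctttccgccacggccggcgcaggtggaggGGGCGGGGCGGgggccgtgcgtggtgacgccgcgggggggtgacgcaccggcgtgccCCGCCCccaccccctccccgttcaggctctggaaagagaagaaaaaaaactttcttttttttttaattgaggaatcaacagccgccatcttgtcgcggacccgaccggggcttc
The EP300 window had 40 CpG and no GC box, and the CREBBP window had 36 CpG and 3 GC boxes, which overlap in part, beginning at -121, -116 and -64. RefSeq lists a further CREBBP window with 4 GC boxes. Besides the GC box, 6 motifs were searched on both strands, and the share of all windows with a match was 34.6% for CCAAT (NFY), 4.24% for TTTCGCGC, TTTGGCGC or TTCCCGCC (E2F), 5.84% for AAGATGG (YY1), 10.3% for CCGGAAG (ETS), 24.6% for TGACG (CRE) and 4.95% for TGAGTCA (AP-1). The EP300 window matched none of them, and the CREBBP window matched AAGATGG at 21 and TGACG at -97 and -81. All 9 genes had an entry, with 13 windows in total. The number of GC boxes in them ran from 0 in EP300, RB1 and the ARF window of CDKN2A to 15 in KMT2C, whose boxes partly overlap. KDM6A matched CCAAT at -198 and -70, TGACG at -115 and TGAGTCA at -110 beside its 2 GC boxes. The 1 RB1 window lay inside the gene, at an alternative start, and is not shown. Such matches describe letters in a window and say nothing of binding.

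Of the 11 other acetyltransferases and coactivators on the list, 3 were lower and 2 were higher, with a median log2 fold change of -0.09. Over all genes tested, 40.2% were called. With EP300 and CREBBP the list had 5 lower, which became 7 with upper-quartile factors and with library size alone, and its 2 higher became 1 without siFBXL6 2. NCOA2, a nuclear receptor coactivator that recruits p300 and CBP, fell from 40.3 ± 2.14 to 25.3 ± 1.73 CPM (log2 fold change -0.67, SE 0.049, edgeR adjusted p = 1.94e-13). NCOA1, of the same family, fell by 0.30 on the log2 scale, while HAT1, which acetylates newly made histones, rose by 0.13.

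STAG2 (chromosome X, 123960212 to 124422664, plus strand) was the only one of the 9 genes called higher. It had 408.2, 393.0 and 390.7 CPM in siNC 1 to 3 and 416.7, 421.2 and 417.8 CPM in siFBXL6 1 to 3. The groups did not overlap, but the gap above siNC 1 was small. On the log2 scale the change was 0.08 (SE 0.029, 95% interval 0.02 to 0.13, edgeR adjusted p = 0.0344). The call was lost with upper-quartile factors (0.06, adjusted p = 0.135), with library size alone (0.05, adjusted p = 0.104) and without any 1 library other than siNC 1, with adjusted p from 0.0731 to 0.114. STAG1, which takes its place in other cohesin rings, had 84.6, 87.6 and 85.8 CPM in siNC 1 to 3 and 89.2, 93.5 and 92.4 CPM in siFBXL6 1 to 3, again without overlap (log2 fold change 0.09, SE 0.032, edgeR adjusted p = 0.0184). The log2 ratio of STAG2 to STAG1 differed by -0.02, with overlap (exact two-sided permutation p = 0.7), and it turned to 0.01 without siNC 1. Per kilobase of exon in siNC, STAG2 stood 4.41 times above STAG1.

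Of the 14 other cohesin genes, 3 were higher and 2 were lower, with a median log2 fold change of -0.01. SMC1A, a core subunit of the ring, rose from 924 ± 51.2 to 1135 ± 7.55 CPM (log2 fold change 0.30, SE 0.031, edgeR adjusted p = 1.03e-09). CTCF, which anchors cohesin on DNA, fell by 0.23 and the loader NIPBL by 0.10 on the log2 scale. Together with STAG2, 6 of 15 were called, a share of 40% against 40.2% over all genes tested. The directions called rested on the scaling, as the 4 higher and 2 lower became 1 and 3 with upper-quartile factors and 1 and 4 with library size alone. The 4 higher also became 2 without any 1 of the siFBXL6 libraries, and the 2 lower became 1 without siFBXL6 1.

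**Figure D3:**
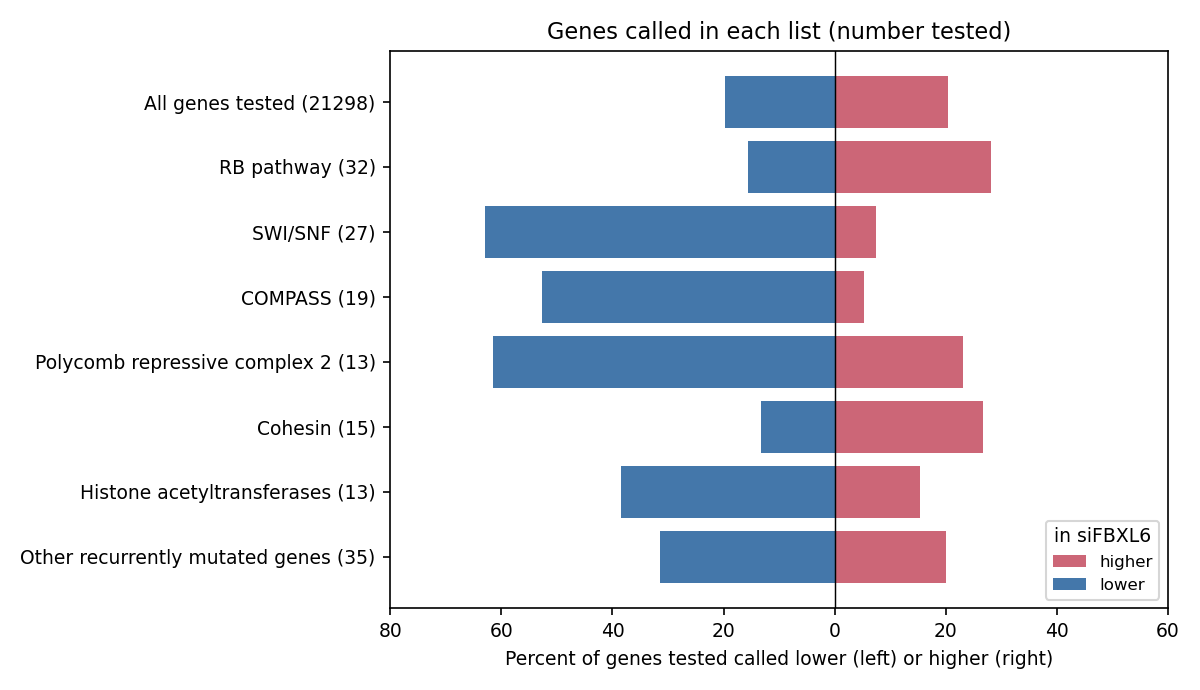
Bars give the percent of tested genes of each list called lower (blue, left) or higher (red, right) in siFBXL6, with the number tested in brackets and all 21298 genes on top; the 9 genes are included in their lists. The SWI/SNF, COMPASS and Polycomb lists extend furthest to the left, with 17 of 27, 10 of 19 and 8 of 13 genes lower.

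**Figure D4:**
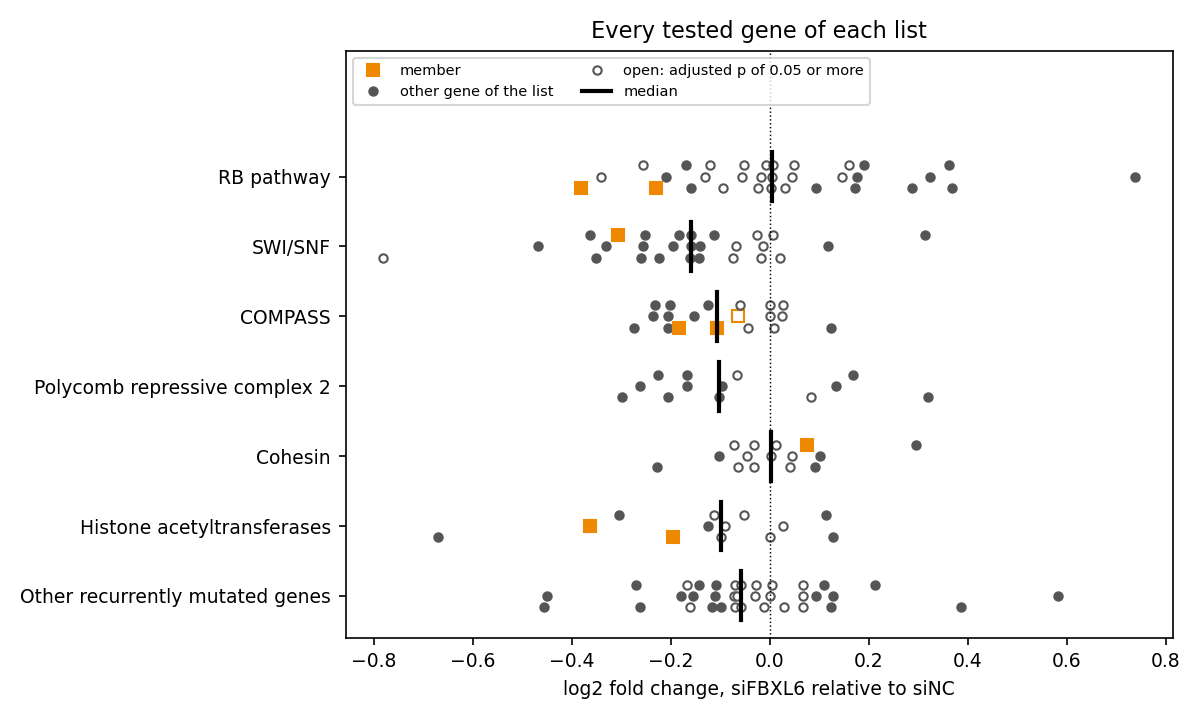
Each point is the log2 fold change of 1 tested gene, by list, with the 9 genes as orange squares, open symbols for an edgeR adjusted p of 0.05 or more and a black bar at the median. The medians of SWI/SNF (-0.16), COMPASS (-0.11), Polycomb repressive complex 2 (-0.10), histone acetyltransferases (-0.10) and other mutated genes (-0.06) lie left of 0, and those of the RB pathway (0.00) and cohesin (0.00) lie at it.

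Of 35 other genes recurrently mutated in bladder cancer, 11 were lower and 7 were higher, with a median log2 fold change of -0.06. Over all genes tested, 19.8% were lower and 20.5% higher. The 7 higher became 3 without siFBXL6 2. RXRA, a nuclear receptor, fell from 92.9 ± 1.64 to 68.0 ± 1.78 CPM (log2 fold change -0.45, SE 0.032, edgeR adjusted p = 1.65e-13). NRAS, a RAS oncogene, rose from 28.7 ± 1.25 to 43.0 ± 1.14 CPM (log2 fold change 0.58, SE 0.043, edgeR adjusted p = 2.47e-13).

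Levels of the 9 genes were then ordered on the scale of CPM per kilobase of exon, over the summed exons of each gene in the table. In siNC, STAG2 came first with 47.7 to 49.9, followed by CDKN2A with 22.4 to 25.6. CREBBP (7.54 to 8.69), ARID1A (7.73 to 8.41) and EP300 (7.57 to 8.13) overlapped and did not differ beyond their spread. KDM6A (6.39 to 6.51), KMT2C (5.30 to 5.78) and KMT2D (4.51 to 5.12) followed without overlap. RB1 was last with 0.486 to 0.604, and STAG2 stood 88.0 times above it. The order of the means was the same in siFBXL6, where CREBBP (7.02 to 7.28), ARID1A (6.50 to 6.77) and EP300 (5.89 to 6.11) no longer overlapped. Among all genes tested, the siNC level per kilobase of RB1 was at percentile 24.1, those of KMT2D to CREBBP lay between 65.1 and 75.7, and those of CDKN2A and STAG2 were at 90.8 and 95.4.

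**Figure D5:**
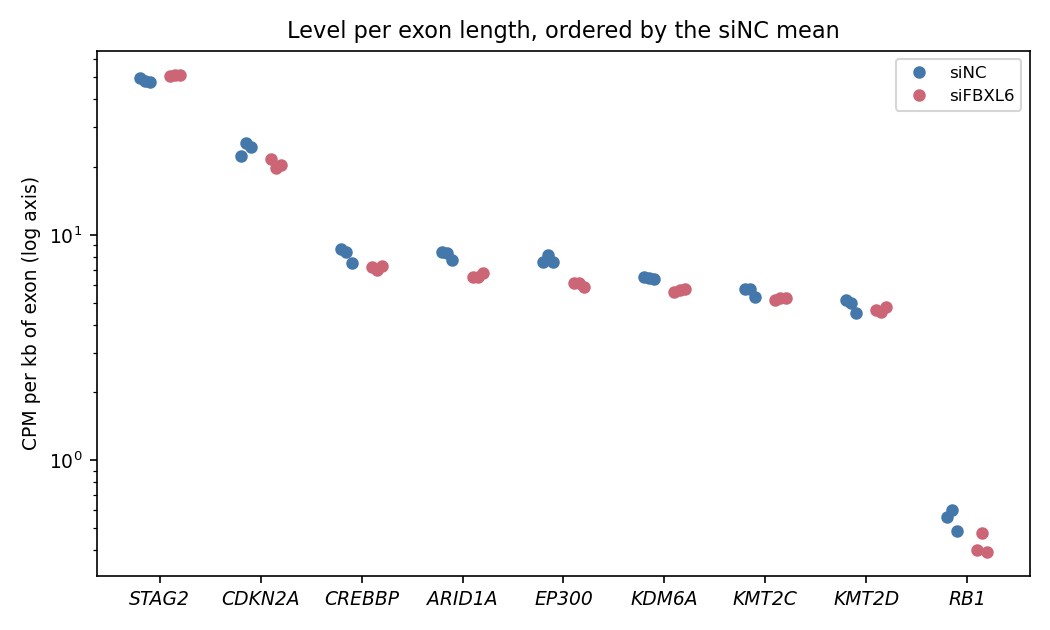
Points are the CPM per kilobase of exon of each gene in the 3 siNC (blue) and 3 siFBXL6 (red) libraries on a log axis, ordered by the siNC mean. STAG2 lies near 50 and RB1 near 0.5, with 6 genes between 4.5 and 8.7.

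Exons of KMT2D, KMT2C, ARID1A, CREBBP and EP300 sum to 20476, 20114, 15922, 15492 and 12500 bases, which places these 5 genes above percentile 96 of length among the genes tested. GC content of the exons ran from 36.8% in RB1 and 39.6% in STAG2 to 57.5% in CDKN2A and 58.8% in KMT2D. Small parts of other members' exons are shared with further genes: 2.4% of ARID1A with RP5-968P14.2, 1.09% of KMT2D with PRKAG1 and 1.27% with RP11-386G11.5, 2.94% of STAG2 with TENM1 and 0.342% with RP1-315G1.3, and 0.856% of EP300 with RP1-85F18.6. RB1, KMT2C, KDM6A and CREBBP share none.

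Protein-coding genes next to the 9 on the chromosome were chosen by position. Of 16 neighbours tested, 4 were higher, 3 were lower and 9 were not called, with a median log2 fold change of 0.04. These 7 calls are read beside the 40.2% called over all genes. Beside RB1, ITM2B fell by 0.17 on the log2 scale and had 10.7 CPM per kilobase in siNC, against 0.551 for RB1. Beside CDKN2A, MTAP rose by 0.23. EP300 had 1 lower neighbour, L3MBTL2, with a log2 fold change of -0.27. Of those of CREBBP, TRAP1 was lower with -0.30 and ADCY9 higher with 0.14 (edgeR adjusted p = 0.045).

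Profiles over the 6 libraries were compared as log2 CPM centred on each gene's mean, by root-mean-square distance. The closest pair among the 9 was KMT2C and KMT2D at 0.0313, and the farthest was RB1 and STAG2 at 0.258. Among 16192 candidate genes that averaged 1 CPM or more, the nearest to each member was AC116366.6 for RB1 (0.0312), PEX10 for CDKN2A (0.021), CCP110 for ARID1A (0.0166), FBXW4 for KMT2D (0.008), GATB for KMT2C (0.0129), RBBP9 for KDM6A (0.0104), TPM4 for STAG2 (0.00703), TAF11 for EP300 (0.0133) and RP11-513D5.2 for CREBBP (0.0175). With 6 libraries such nearness is a description of these samples. Of the 8 ratios of a gene to its relative, 6 differed between the groups without overlap. Each of these had an exact two-sided permutation p of 0.1, the smallest possible, and 0.133 after Benjamini-Hochberg adjustment over the 8. Of single genes tested, 48.2% were separated in this way, and the share over other gene pairs was not computed. RBL1, CDKN2B and KDM6B were not called, so the ratios to them largely repeat the change of the member.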

How the data were processed

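The authors deposited 1 table of raw read counts per gene for the 6 libraries, without normalization. The study's methods name Trimmomatic and HISAT2, whereas the submitters' processing notes name fastp 0.23.0 and STAR; both name featureCounts (Subread 1.5.1) and GRCh38. The annotation release and the strand setting are not given in the sources used here. Genes were filtered with filterByExpr, scaled with TMM factors and tested with the quasi-likelihood test of edgeR 4.0.16 (limma 3.58.1, R 4.3.3), with condition as the only term and Benjamini-Hochberg adjustment over the 21298 genes kept. A gene was called at an adjusted p under 0.05. CPM values use the TMM-scaled library size, and log2 CPM a prior count of 0.5. The script was tested on simulated counts. It recovered 71 of 100 genes changed by 0.3 on the log2 scale and 100 of 100 changed by 1. Of 180 calls, 9 were false. Smaller changes, such as those of several of the 9 genes, were not simulated. Coordinates were checked against GENCODE 44, where 99.8% of 33906 shared symbols overlapped. Alternatives were DESeq2 1.42.0, other scalings and filters, a replicate block, offsets for exon length and GC content, and leaving out each library. Of the list symbols, 3 were found through RefSeq synonyms. Named genes were FBXL6, the 9 genes and their relatives, for each list the 3 others with the smallest adjusted p and the 1 called gene with the largest change at a mean of at least 1 CPM, the top and empty markers, nearest profiles and genes with shared exons. Neighbours were added by position, and genes marked so in the text after their values were seen. Some genes that this rule names are not reported here. The members and lists were chosen with earlier results of these data known. Figures were drawn with matplotlib 3.10.9.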

Additional observations from a re-analysis of the deposited data

How the results depend on the processing

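Over 17 alternatives for each of the 9 genes, 139 of 153 values kept their direction and their side of the threshold, 13 lost the call, 1 gained it and 0 reversed. CDKN2A, ARID1A, KDM6A, EP300 and CREBBP kept their calls in all 17. RB1 lost its call with DESeq2 (-0.379, adjusted p = 0.067). STAG2 lost its call with upper-quartile factors (0.0557, adjusted p = 0.135) and with library size alone (0.0534, adjusted p = 0.104). The causes were not tested. Leaving out each library in turn, log2 fold changes ran from -0.476 to -0.308 for RB1, from -0.146 to -0.086 for KMT2C, from -0.118 to -0.0288 for KMT2D and from 0.0631 to 0.0944 for STAG2. RB1 lost its call without siNC 2 (-0.308), siFBXL6 1 (-0.34) or siFBXL6 3 (-0.329), and KMT2C without siNC 2 (-0.086) or siFBXL6 1 (-0.0979). KMT2D gained a call without siNC 3 (-0.118). STAG2 kept its call only without siNC 1 (0.0944), and lost it without siNC 2 (0.0673), siNC 3 (0.0631), siFBXL6 1 (0.0785), siFBXL6 2 (0.0714) or siFBXL6 3 (0.0775). The number of the 9 called ran from 5, without siNC 2 or siFBXL6 1, to 8. Calls on the cohesin list ran from 3, without siFBXL6 1, to 5. The log2 ratio of STAG2 to STAG1 ran from -0.0381 to 0.0143 and reversed without siNC 1. Calls over all genes ran from 7039 with DESeq2 to 8707 with library size alone, and the higher share of them from 45.1% with library size alone to 57% with the exon length offset and replicate block, against 50.9%. Deviations of same-numbered libraries correlated at -0.0617, 0.00348 and -0.00148, so no effect shared by same-numbered libraries was seen. These values cannot tell whether such libraries were prepared together. With the replicate block 8408 genes were called, and no call among the 9 changed. RB1 had at most 230 counts per library.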

Other observations

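Some families of chromatin genes, some already on the lists above, were counted by symbol, a choice made after the values of the 9 genes had been seen. These counts are read beside 19.8% lower and 20.5% higher over all genes tested, and were not made under other scalings. Not every family that was counted is given here, so they are no full tally. CHD remodelers had 6 lower and 1 higher of 9 in siFBXL6. The TAF subunits of TFIID had 4 lower and 4 higher of 14, the SIRT deacetylases 2 and 1 of 7, and the INO80 subunits 1 and 1 of 5. The KMT and SETD methyltransferases, which include KMT2C, KMT2D and other genes of the COMPASS list, had 9 lower and 3 higher of 17, the TET dioxygenases 2 and 1 of 3, and of the DNA methyltransferases 1 of 3 was lower. The HDAC deacetylases had 6 lower and 2 higher of 11. HDAC9 was among the higher, rising from 65.5 ± 0.49 to 112 ± 2.25 CPM (log2 fold change 0.77, SE 0.031, edgeR adjusted p = 4.38e-20). It was named after its values were seen.

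The KDM demethylases, to which KDM6A belongs, had 7 lower and 5 higher of 16. KDM1A, an H3K4 demethylase also known as LSD1, fell from 500 ± 2.43 to 340 ± 3.49 CPM (log2 fold change -0.56, SE 0.028, edgeR adjusted p = 1.3e-17), and KDM5B fell by 0.40 on the log2 scale. Its relatives KDM5A and KDM5C rose by 0.28 and 0.25. KDM1A and these KDM5 genes were likewise named after their values were seen. Mediator subunits, which join enhancers to RNA polymerase, had 9 higher and 6 lower of 30 and a median log2 fold change of 0.03. Over all 941 tested genes with more than 12000 exon bases, the length class of KMT2D, KMT2C, ARID1A, CREBBP and EP300, 28.3% were lower and 28.3% were higher, against 19.8% and 20.5% of all genes tested. Up to 1000 exon bases, 7.9% were lower and 11.2% were higher. The shares called in the lists and families above were not matched for exon length.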
